A study of Homo sapiens with 6 samples.

Results

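The basement membrane genes examined here are the 6 type IV collagen chain genes COL4A1 to COL4A6, the perlecan gene HSPG2, the nidogen genes NID1 and NID2, and the type XVIII collagen gene COL18A1. These 10 genes were taken by symbol from the 58735 genes of the deposited count table. RNA was sequenced from 3 libraries of BARD1-expressing cells and 3 libraries of control cells, all labelled as stable cells at 48 h, with the stated interest in tumour angiogenesis. BARD1 is a tumour suppressor that works bound to BRCA1. BARD1-expressing cells were made by lentiviral transduction of OVCAR8 cells with a BARD1 reading frame, seen as a GFP fusion, and the labels do not say what vector, if any, the control cells carried. The labels also do not say whether the transduced line is 1 clone or a pool, so an effect of BARD1 and other differences between the lines cannot be told apart. The line is OVCAR8ip1 in the titles but SKOV3ip1 in the cell line tag, and the tissue tag gives SKOV3ip1 tumors, so both the line and the kind of material are in conflict.

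Type IV collagen forms the sheet-like network of every basement membrane. Its chains fold as trimers. The products of COL4A1 and COL4A2 join in the common trimer, those of COL4A3, COL4A4 and COL4A5 in the trimer of kidney glomerulus, lung and cochlea, and those of COL4A5 and COL4A6 in a trimer found around smooth muscle and some epithelia. The genes lie in head-to-head pairs, each pair on a different chromosome and transcribed in opposite directions from a stretch between the start sites. Nidogens bridge the collagen network to laminin, perlecan is the large heparan sulfate proteoglycan of the same sheet, and type XVIII collagen carries heparan sulfate too. Fragments cut from the ends of several of these proteins, among them endostatin from type XVIII collagen, tumstatin from the COL4A3 product, arresten and canstatin from the COL4A1 and COL4A2 products and endorepellin from perlecan, are known to restrain the growth of blood vessels.

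The sequences between the RefSeq start sites are shown because each of them is shared by a pair of genes whose response is compared below. RefSeq windows (build GRCh38.p14) were matched for all 10 genes, with 12 windows in all. The RefSeq start sites lie 127 bases apart for COL4A1 and COL4A2, 419 for COL4A4 and COL4A3, and 380 for COL4A5 and the nearer of 2 COL4A6 starts. Given 5′ to 3′ on the plus strand, the first is the whole stretch between the starts of COL4A1 and COL4A2 (chr13:110307158-110307283), and the others are the 250 bases before the start of COL4A3 (chr2:227164374-227164623) and of COL4A5 (chrX:108439588-108439837). In the deposited annotation COL4A1, COL4A3 and COL4A4 begin inside these stretches, at 110307233, 227164565 and 227164453. Capitals mark matches on either strand to any of 4 motifs. The GC box was searched as GGGCGG. The CCAAT box was searched by the letters of its name. The TATA box was searched as TATAAA. The CTC box was searched as CCCTNCCCC.
COL4A1 and COL4A2: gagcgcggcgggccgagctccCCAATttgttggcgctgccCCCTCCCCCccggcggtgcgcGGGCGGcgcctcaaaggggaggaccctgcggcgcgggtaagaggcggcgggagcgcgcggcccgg
COL4A3: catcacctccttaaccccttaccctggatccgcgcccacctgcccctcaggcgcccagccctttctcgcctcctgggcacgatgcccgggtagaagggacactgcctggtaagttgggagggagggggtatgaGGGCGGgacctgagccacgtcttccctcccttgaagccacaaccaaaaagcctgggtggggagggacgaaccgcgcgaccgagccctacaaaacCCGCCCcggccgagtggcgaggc
COL4A5: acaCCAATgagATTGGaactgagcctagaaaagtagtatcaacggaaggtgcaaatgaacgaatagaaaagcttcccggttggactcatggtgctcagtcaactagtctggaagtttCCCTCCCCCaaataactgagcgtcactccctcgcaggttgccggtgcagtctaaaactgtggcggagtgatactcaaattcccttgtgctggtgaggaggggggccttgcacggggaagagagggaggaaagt

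The 3 stretches differ in base composition. G and C make up 80.2% of the stretch between COL4A1 and COL4A2, 66.4% of that before COL4A3 and 51.2% of that before COL4A5. The stretch between COL4A1 and COL4A2 holds 1 CCAAT box, 1 CTC box and 1 GC box, that before COL4A3 holds 2 GC boxes and none of the other motifs, and that before COL4A5 holds 2 CCAAT boxes and 1 CTC box. None of the marked matches overlap each other. Over the 35116 RefSeq windows of 300 bases, 45.0% held the GC box letters, 34.6% the CCAAT box, 11.5% the TATA box and 11.4% the CTC box. Of the 12 windows of these genes, 9 held the GC box, 6 the CCAAT box, 5 the CTC box and 1, at the second COL18A1 start, the TATA box. The windows of HSPG2 and of the first COL18A1 start held 10 and 9 GC boxes. These are matches of letters, with no measurement of binding.

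Libraries held 12744310 to 24349158 counted reads in BARD1-expressing cells and 21819199 to 23992482 in control cells, and 15400 genes had enough counts to be tested, including all 10 of these. BARD1 had 623, 1072 and 688 reads in BARD1-expressing libraries and 414, 392 and 420 in control libraries (log2 fold change 1.37 ± 0.081, edgeR adjusted p = 4.67e-12). Of 10 tested carcinoma markers, on a list of 13, 3 rose and 1 (PAX8) fell by edgeR, or 40% called, against 29.0% of all tested genes, and 1 was called higher by DESeq2, without control library 1 or without control library 2. Those that rose were KRT7 (1070 ± 57.6 CPM in BARD1-expressing and 842 ± 11.6 CPM in control cells), WT1 and FOLR1. The WT1 call and the FOLR1 call were each lost in 6 of 12 alternatives. KRT8 was at 2010 ± 76.1 CPM in BARD1-expressing and 2080 ± 37.8 CPM in control cells (SD, n = 3 each), PAX8 at 91.4 ± 6.09 CPM in BARD1-expressing and 143 ± 8.98 CPM in control cells and EPCAM at 19.0 ± 1.01 CPM in BARD1-expressing and 19.2 ± 0.491 CPM in control cells, while MUC16 and KRT19 had no count in any library. Levels are in CPM, which scale each gene's reads to a common library size after TMM normalization, and a count of 0 allows up to 3 counts, or 0.124 to 0.236 CPM across libraries. The floor allows for counting error alone, as the labels name no molecular identifiers and PCR copies are not independent. The labels call the replicates biological without naming separate cultures, so the p-values refer to a spread among libraries that may be technical.

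In BARD1-expressing cells 5 of the 10 genes rose, 2 fell and 3 did not pass the test. Across all tested genes 29.0% were called, 16.5% higher and 12.4% lower, at an adjusted p under 0.05 in edgeR's quasi-likelihood test with Benjamini-Hochberg adjustment. COL4A1, COL4A2 and HSPG2 rose most, COL18A1 and NID1 rose less, and COL4A3 and COL4A4 fell. COL4A5, COL4A6 and NID2 were not called. The median log2 fold change of the 10 genes was 0.29, against -0.0027 over all tested genes. The groups did not overlap for 9 of the 10, the exception being COL4A6, where 40.9% of all tested genes had groups that did not overlap.

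**Figure D1:**
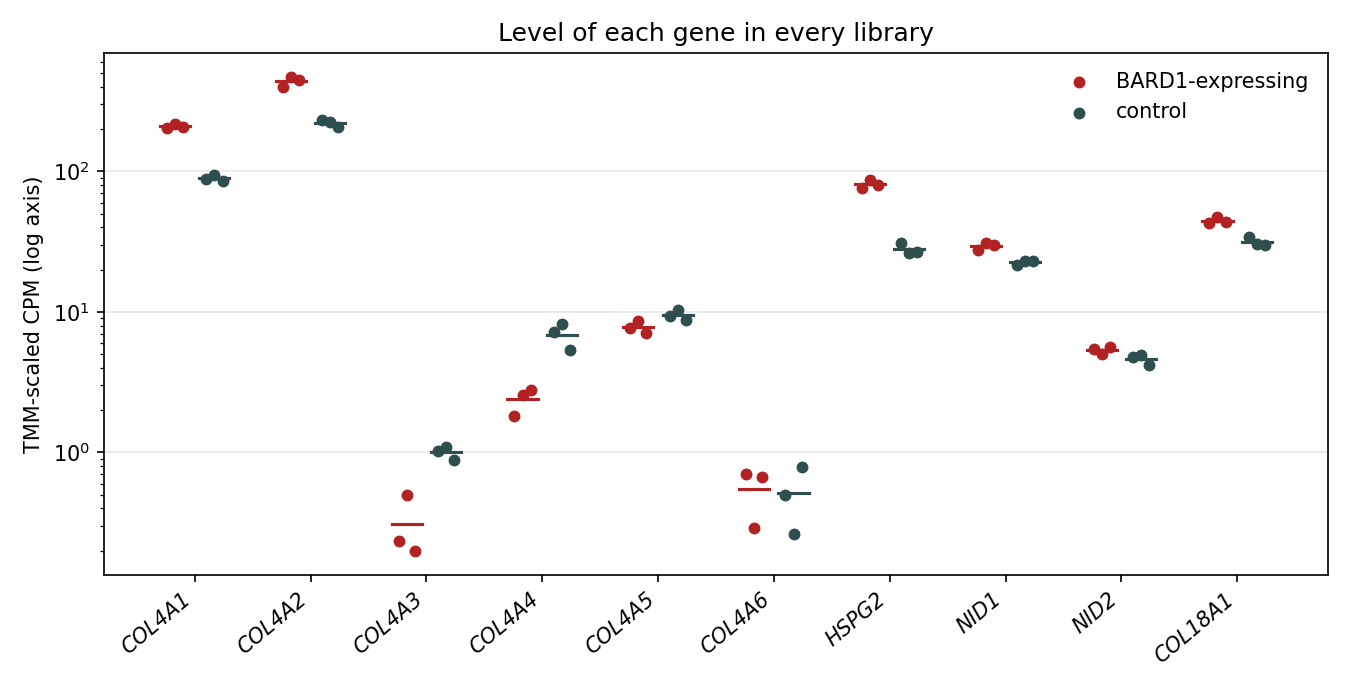
Level of each of the 10 genes in TMM-scaled CPM on a log axis, with 1 point per library, BARD1-expressing libraries on the left and control libraries on the right of each gene, and a bar at each mean. COL4A2 was the highest gene at 441 CPM in BARD1-expressing and 221 CPM in control cells, and the groups overlapped at COL4A6 alone.

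COL4A1 and COL4A2 encode the chains of the common trimer. COL4A1 (ENSG00000187498, chromosome 13, 110148963 to 110307233, minus strand, GRCh38) stood at 205, 218 and 207 CPM in BARD1-expressing libraries and at 88.9, 94.0 and 85.7 CPM in control libraries. Each BARD1-expressing library was thus above each control library, and the spread within either group was small beside the gap. The log2 fold change was 1.23 ± 0.054 (SE, edgeR adjusted p = 3.03e-14). COL4A2 (ENSG00000134871, chromosome 13, 110305812 to 110513209, plus strand) stood at 402, 472 and 451 CPM in BARD1-expressing libraries and at 232, 223 and 208 CPM in control libraries. Its lowest BARD1-expressing library was library 1, the shallowest of the 6, and it lay well above the highest control. Its log2 fold change was 1.00 ± 0.058 (SE, edgeR adjusted p = 5.84e-12). In the deposited annotation the spans of this pair share 1422 bases, but no exonic base of one lies in an exon of the other (GENCODE release 29, whose coordinates match the table for all 10 genes).

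Both genes of this pair rose, and the ratio between them shifted a little. COL4A2 had 1.96, 2.16 and 2.18 reads for each COL4A1 read in BARD1-expressing libraries 1 to 3, and 2.61, 2.38 and 2.42 in control libraries 1 to 3. The groups did not overlap, with less COL4A2 per COL4A1 in each BARD1-expressing library. The log2 ratio of COL4A1 to COL4A2 was -1.07 ± 0.086 in BARD1-expressing and -1.30 ± 0.073 in control libraries (SD, n = 3 each), a difference of 0.23 ± 0.065 (SE). An exact two-sided permutation test over libraries gave p = 0.1, the smallest that this test allows with 3 against 3 libraries, and 0.4 adjusted over the 4 ratios tested, so this test could not have passed 0.05. Per kilobase of the longest protein-coding transcript, the ratio of COL4A2 to COL4A1 averaged 2.14 in BARD1-expressing and 2.52 in control libraries. Per kilobase of the deposited gene length, which counts all annotated exons, it averaged 1.6 in BARD1-expressing and 1.89 in control libraries.

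COL4A3 and COL4A4, of the kidney, lung and cochlea trimer, both fell. COL4A4 (ENSG00000081052, chromosome 2, 227002711 to 227164453, minus strand) stood at 1.81, 2.56 and 2.79 CPM in BARD1-expressing libraries and at 7.18, 8.15 and 5.35 CPM in control libraries. The highest BARD1-expressing library lay below the lowest control, although control libraries themselves ranged from 116 to 186 reads. COL4A4 had a log2 fold change of -1.51 ± 0.195 (SE, edgeR adjusted p = 1.84e-06). COL4A3 (ENSG00000169031, chromosome 2, 227164565 to 227314792, plus strand) was rare, with 3, 12 and 3 reads in BARD1-expressing libraries and 25, 25 and 19 in control libraries. BARD1-expressing libraries 1 and 3 were thus at the floor of 3 counts, and library 2 was the only one clearly above it. COL4A3 met the count filter through the control libraries, where it was high. With no filter it was called lower too (edgeR adjusted p = 0.00653). The log2 fold change of COL4A3 was -1.55 ± 0.431 (SE, edgeR adjusted p = 0.00838), and -2.18 without BARD1-expressing library 2. From pooled counts, 18 reads in BARD1-expressing and 69 in control libraries, the ratio of BARD1-expressing to control was 0.342 (95% exact interval 0.192 to 0.582, counting error only).

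The ratio within this pair did not shift measurably. COL4A4 had 7.67, 5.17 and 14.0 reads for each COL4A3 read in BARD1-expressing libraries, against 6.96, 7.44 and 6.11 in control libraries. The groups overlapped, and the BARD1-expressing values, which rest on 3 to 12 COL4A3 reads, spread more widely than the control values. The log2 ratio of COL4A3 to COL4A4 differed by 0.0042 ± 0.341 (SE, exact two-sided permutation p = 1, adjusted p = 1), so a shift of the size seen for COL4A1 and COL4A2 would lie within this error. COL4A3 shares 120 of its 9124 exonic bases with the antisense gene AC097662.1, which had 6 to 10 reads in BARD1-expressing and 10 to 20 in control libraries. The labels leave the strand setting of the counting unstated, so reads of opposite, overlapping genes cannot be told apart.

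COL4A5 and COL4A6, on the X chromosome, were not called. COL4A5 (ENSG00000188153, chromosome X, 108439844 to 108697545, plus strand) stood at 7.71, 8.67 and 7.10 CPM in BARD1-expressing libraries and at 9.41, 10.3 and 8.72 CPM in control libraries. The highest BARD1-expressing library lay just under the lowest control, so the groups were separated by less than the spread within either. COL4A5 had a log2 fold change of -0.27 ± 0.127 (SE, edgeR adjusted p = 0.124), with an interval of 2 SE from -0.52 to -0.01. COL4A6 (ENSG00000197565, chromosome X, 108155607 to 108439497, minus strand) had 9, 7 and 10 reads in BARD1-expressing libraries and 12, 6 and 17 in control libraries. At this depth its log2 fold change of 0.01 ± 0.515 (SE, edgeR adjusted p = 0.992) leaves an interval of 2 SE from -1.02 to 1.04, wide enough to hold a change as large as that of COL4A2 in either direction. The log2 ratio of COL4A5 to COL4A6 was 3.67 ± 0.717 in BARD1-expressing and 4.06 ± 0.766 in control libraries (SD, n = 3 each, exact two-sided permutation p = 0.5, adjusted p = 0.667).

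**Figure D2:**
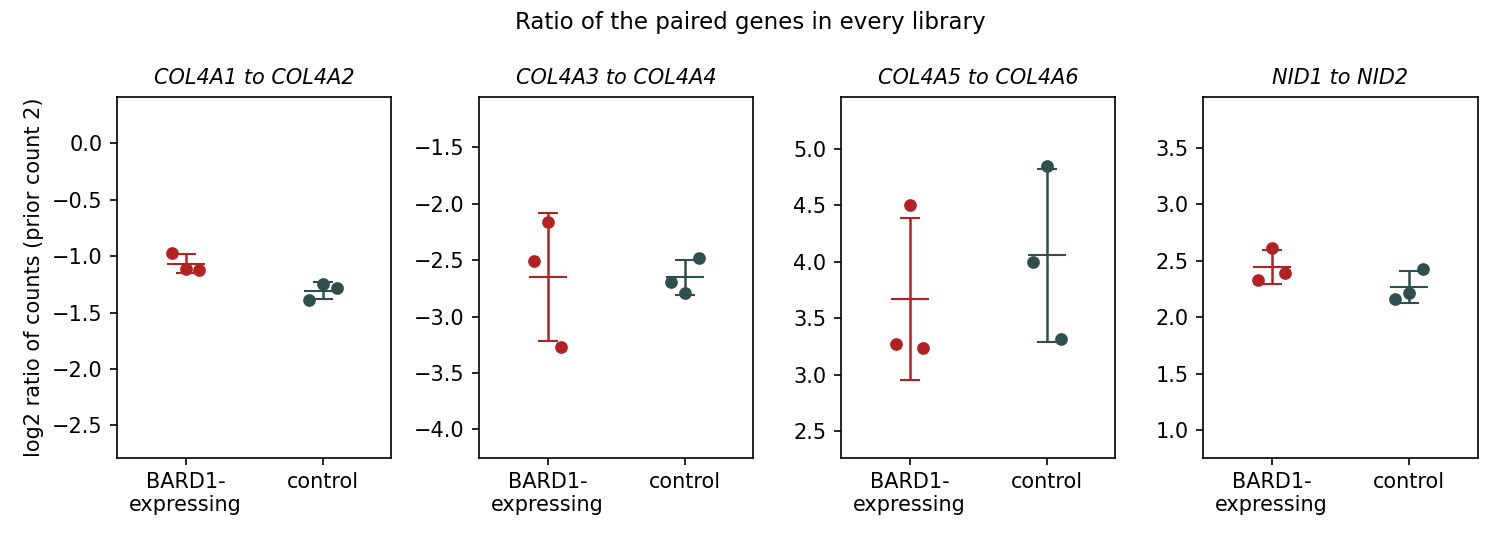
Log2 ratio of read counts (prior count 2) of COL4A1 to COL4A2, COL4A3 to COL4A4, COL4A5 to COL4A6 and NID1 to NID2, with 1 point per library, bars at the mean and error bars of 1 SD (n = 3), BARD1-expressing left and control right in each panel, and panels of equal height in log2 units. The groups did not overlap for COL4A1 to COL4A2 and overlapped for the other 3 ratios.

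The balance among the 6 type IV chains lay further towards COL4A1 and COL4A2 in BARD1-expressing cells, which is given as a description. Per kilobase of the longest protein-coding transcript, these 2 genes made up 98.4, 98.4 and 98.5% of the summed type IV collagen level in BARD1-expressing libraries and 95.4, 94.96 and 95.5% in control libraries. COL4A3 and COL4A4 made up 0.222, 0.295 and 0.296% in BARD1-expressing libraries and 1.64, 1.85 and 1.37% in control libraries. The share of COL4A5 and COL4A6 was 1.37, 1.29 and 1.17% in BARD1-expressing libraries and 2.95, 3.19 and 3.11% in control libraries, so it was lower in each of them while neither gene was called. That share has COL4A1 and COL4A2 in its denominator, which rose. The summed level per kilobase was 94.3, 107 and 102 in BARD1-expressing libraries and 51.6, 51.2 and 47.0 in control libraries, in CPM per kilobase. With the deposited gene length the share of COL4A1 and COL4A2 was 97.4 to 97.5% in BARD1-expressing and 90.8 to 92.0% in control libraries.

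HSPG2 encodes perlecan, whose heparan sulfate chains bind growth factors such as FGF2 and VEGFA. HSPG2 (ENSG00000142798, chromosome 1, 21822245 to 21937297, minus strand) stood at 76.6, 86.2 and 80.3 CPM in BARD1-expressing libraries and at 30.9, 26.2 and 26.8 CPM in control libraries. The lowest BARD1-expressing library was well above the highest control. The log2 fold change was 1.54 ± 0.075 (SE, edgeR adjusted p = 1.75e-13), the highest of the 10 genes. Of its 18104 exonic bases, 2121 are shared with LDLRAD2 on the other strand, which had 0, 4 and 1 reads in BARD1-expressing libraries and none in control libraries.

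COL18A1, the source of endostatin, stood at 43.1, 47.1 and 43.9 CPM in BARD1-expressing libraries and at 34.0, 30.4 and 30.2 CPM in control libraries. The groups were separate, with a log2 fold change of 0.51 ± 0.075 (SE, edgeR adjusted p = 1.17e-05). COL18A1 (ENSG00000182871, chromosome 21, 45405137 to 45513720, plus strand) shares 1401 of its 8525 exonic bases with SLC19A1 on the other strand. SLC19A1 had 809 to 1470 reads in BARD1-expressing and 1418 to 1545 in control libraries and was not called (log2 fold change -0.10, edgeR adjusted p = 0.234). With the strand setting of the counting unstated, the COL18A1 count is uncertain.

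The nidogen gene NID1 rose, while NID2 was not called. NID1 (ENSG00000116962, chromosome 1, 235975830 to 236065162, minus strand) stood at 27.6, 30.9 and 30.0 CPM in BARD1-expressing libraries and at 21.7, 23.1 and 23.1 CPM in control libraries, with no overlap and a log2 fold change of 0.39 ± 0.081 (SE, edgeR adjusted p = 0.000756). NID2 (ENSG00000087303, chromosome 14, 52004803 to 52069228, minus strand) stood at 5.43, 5.00 and 5.64 CPM in BARD1-expressing libraries and at 4.79, 4.91 and 4.20 CPM in control libraries. Its groups only just failed to overlap, and its log2 fold change of 0.20 ± 0.157 (SE, edgeR adjusted p = 0.375, interval of 2 SE from -0.11 to 0.51) was not called. The interval holds the value of NID1. The log2 ratio of NID1 to NID2 was 2.44 ± 0.147 in BARD1-expressing and 2.27 ± 0.145 in control libraries (SD, n = 3 each, exact two-sided permutation p = 0.3, adjusted p = 0.6), so a difference in response between them was not shown. NID2 shares 1915 of its 6392 exonic bases with RTRAF on the other strand, which had 1921 to 3660 reads in BARD1-expressing and 3586 to 3886 in control libraries, so the NID2 count is uncertain.

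**Figure D3:**
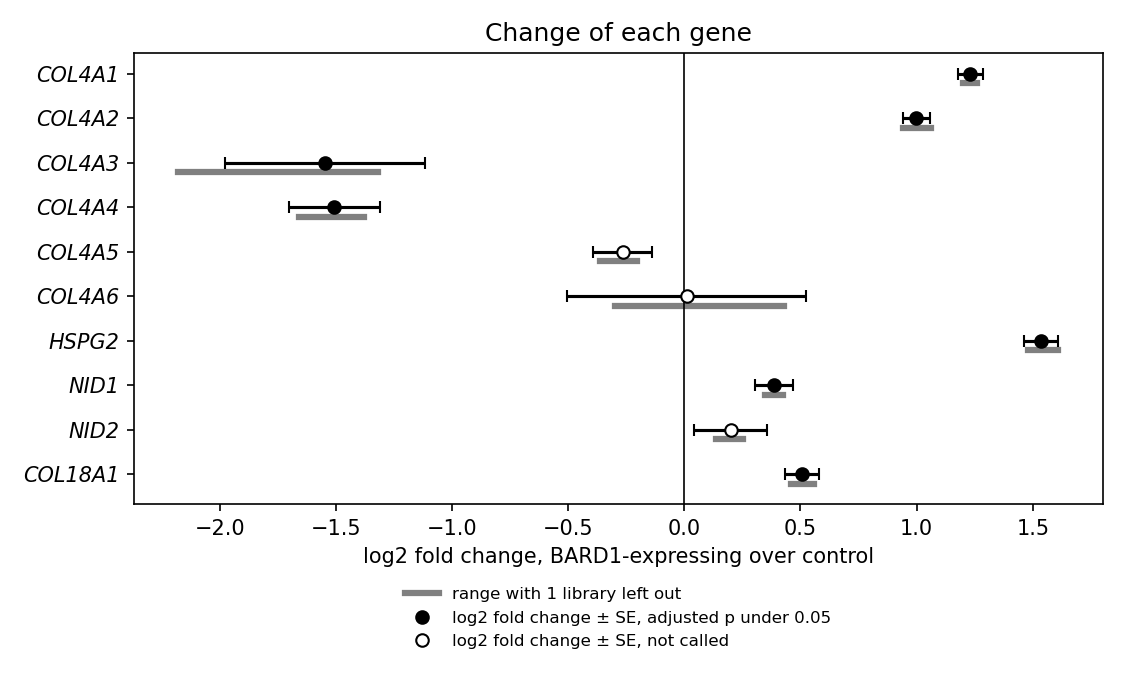
Log2 fold change of each gene, BARD1-expressing over control, as points with error bars of 1 SE from the edgeR fit, filled where the adjusted p was under 0.05 and open where it was not, and grey bars for the range with 1 library left out. HSPG2, COL4A1 and COL4A2 lie at 1.00 or above, COL4A3 and COL4A4 near -1.5, and the bar of COL4A6 crosses 0.

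Levels between genes were compared per kilobase of the longest protein-coding transcript. In BARD1-expressing cells the order was COL4A2 (68.0 CPM per kilobase), COL4A1 (31.8), COL18A1 (6.79), HSPG2 (5.66), NID1 (5.03), COL4A5 (1.21), NID2 (1.11), COL4A4 (0.238), COL4A6 (0.0820) and COL4A3 (0.0383). Neighbours in that order did not overlap between libraries, except COL4A5 with NID2 and COL4A6 with COL4A3. In control cells the order was COL4A2 (34.1 CPM per kilobase), COL4A1 (13.5), COL18A1 (4.79), NID1 (3.86), HSPG2 (1.95), COL4A5 (1.46), NID2 (0.962), COL4A4 (0.688), COL4A3 (0.124) and COL4A6 (0.0762), and there only COL4A3 and COL4A6 overlapped. HSPG2 thus stood above NID1 in BARD1-expressing cells and below it in control cells. Per kilobase of the deposited gene length, NID1 (5.03 CPM per kilobase) overlapped with COL18A1 (5.24) and with HSPG2 (4.48) in BARD1-expressing cells, and NID1 (3.86) with COL18A1 (3.70) in control cells, so the order of these 3 genes depends on the length used. The order of COL4A5 and NID2 does too, since on the deposited length NID2 (0.838) stood above COL4A5 (0.660) without overlap in BARD1-expressing cells. In control cells COL4A5 (0.800) overlapped with NID2 (0.724), and NID2 with COL4A4 (0.684), on that length.

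The genes around these loci had median log2 fold changes between -0.063 and 0.055. Over the 10 nearest tested protein-coding genes on each side, chosen as a measure after the data were seen, the median log2 fold change was 0.045 around COL4A1 and COL4A2, -0.063 around COL4A3 and COL4A4, -0.018 around COL4A5 and COL4A6 and 0.055 around HSPG2. Around NID1, NID2 and COL18A1 it was 0.052, -0.055 and 0.032. Of the 20 neighbours at each locus, 6 rose and 3 fell around COL4A1 and COL4A2, 1 rose and 3 fell around COL4A3 and COL4A4, and 5 rose and 0 fell around COL4A5 and COL4A6. Around HSPG2 5 rose and 4 fell, around NID1 3 rose and 4 fell, around NID2 2 rose and 5 fell, and around COL18A1 6 rose and 1 fell. Over all tested genes 16.5% rose and 12.4% fell.

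By Pearson correlation of log2 CPM over the 6 libraries, the protein-coding genes of at least 5 CPM most like COL4A1 were GREM1 (r = 0.9991), PLAU (0.9988) and KISS1 (0.9986). Those most like COL4A2 were SDK1 (0.9997), METRNL (0.9995) and PHF19 (0.9991), and those most like HSPG2 were SHROOM1 (0.9989), HS6ST1 (0.9988) and FBN1 (0.9985). Those most like COL4A5 were MFSD5 (0.9883), NPR1 (0.9880) and HEBP1 (0.9877), those most like NID1 were FTL (0.9987), CKAP4 (0.9975) and SQSTM1 (0.9951), and those most like COL18A1 were CITED4 (0.9985), TRIO (0.9983) and ETFB (0.9962). COL4A2 was at rank 100 of 10384 genes for COL4A1 (r = 0.9913). All 6 libraries fall in 2 separated groups, so such values mostly record the gap between the groups and are given as a description.

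The other genes of the pathway were described by role. Among 15 enzymes that modify collagen chains, 6 rose and 2 fell. The lysyl hydroxylase gene PLOD2 fell to 113 ± 10.0 CPM in BARD1-expressing cells, against 158 ± 2.37 CPM in control cells, and the prolyl 3-hydroxylase gene P3H2, whose product acts on type IV collagen, fell to 12.9 ± 1.01 CPM in BARD1-expressing cells, against 19.6 ± 2.14 CPM in control cells. The prolyl 4-hydroxylase gene P4HA2, on chromosome 5, rose (35.2 ± 0.803 CPM in BARD1-expressing and 22.9 ± 0.575 CPM in control cells, SD, n = 3 each). The lysyl hydroxylase genes PLOD1 and PLOD3, named after their values were seen, also rose, opposite to PLOD2. PLOD1 stood at 114 ± 4.44 CPM in BARD1-expressing and 96.7 ± 1.95 CPM in control cells (edgeR adjusted p = 0.00144). PLOD3 stood at 145 ± 1.15 CPM in BARD1-expressing and 118 ± 1.59 CPM in control cells (edgeR adjusted p = 8.10e-05). Of 13 genes for collagen folding and export, 7 rose and none fell, with the smallest p at CREB3L2 (131 ± 4.42 CPM in BARD1-expressing and 64.7 ± 2.82 CPM in control cells), SERPINH1 (374 ± 12 CPM in BARD1-expressing and 272 ± 6.10 CPM in control cells) and CREB3L1 (66.0 ± 7.31 CPM in BARD1-expressing and 42.5 ± 3.31 CPM in control cells). SERPINH1 encodes the collagen chaperone HSP47, and the CREB3L genes encode membrane-bound transcription factors known to act on secretory and collagen genes. For this group 4 genes rather than 7 were called higher without control library 1.

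Genes that crosslink the network rose in 3 of 7 cases and none fell. The transglutaminase gene TGM2 was at 158 ± 5.41 CPM in BARD1-expressing and 90.1 ± 3.40 CPM in control cells, and the lysyl oxidase-like gene LOXL2 at 175 ± 3.77 CPM in BARD1-expressing and 116 ± 2.53 CPM in control cells (SD, n = 3 each). LOXL3 (6.42 ± 0.413 CPM in BARD1-expressing and 4.84 ± 0.162 CPM in control cells) also passed, a call lost in 8 of 12 alternatives. PXDN, named after its values were seen, encodes peroxidasin, which makes the sulfilimine bonds of type IV collagen, and stood at 1.11 ± 0.378 CPM in BARD1-expressing and 1.5 ± 0.086 CPM in control cells (edgeR adjusted p = 0.382). Of 15 tested genes for heparan sulfate chains, which perlecan and type XVIII collagen carry, 5 rose and none fell. The share called, 33.3%, was near the 29.0% of all tested genes. The sulfotransferase gene HS6ST1 (80.4 ± 2.68 CPM in BARD1-expressing and 36.1 ± 1.62 CPM in control cells), the sulfotransferase gene NDST1 (226 ± 6.34 CPM in BARD1-expressing and 158 ± 7.37 CPM in control cells) and the polymerase gene EXT1 (445 ± 6.06 CPM in BARD1-expressing and 354 ± 2.33 CPM in control cells) had the smallest p. In these lists for folding, crosslinking and heparan sulfate, where edgeR called none lower, 0 genes were lower at an unadjusted p under 0.05, and DESeq2 and limma-voom called 0 lower as well. Without BARD1-expressing library 1, edgeR called 1 heparan sulfate gene lower.

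Laminins and other basement membrane proteins moved in both directions. Of 10 tested laminin chain genes, 4 rose and 2 fell (2 rose without BARD1-expressing library 3). Among those that rose, the LAMC1 call was lost in 9 of 12 alternatives and the LAMB1 call in 2. LAMA3, the gene of an alpha chain on chromosome 18, fell to 0.773 ± 0.285 CPM in BARD1-expressing cells, against 1.97 ± 0.376 CPM in control cells. LAMA5, the gene of another alpha chain, rose (104 ± 6.32 CPM in BARD1-expressing and 52.5 ± 7.41 CPM in control cells, SD, n = 3 each). Of 17 other tested basement membrane genes, 5 rose and 3 fell, with the fibulin genes FBLN1 (68.2 ± 2.10 CPM in BARD1-expressing and 30.6 ± 3.08 CPM in control cells) and FBLN2 (49.1 ± 3.37 CPM in BARD1-expressing and 22 ± 0.932 CPM in control cells) higher and FN1, the fibronectin gene, lower (log2 fold change -2.24 ± 0.054, SE, edgeR adjusted p = 2.58e-19).

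Receptor genes rose in 9 of 15 tested cases and 1 fell. Among those that rose, ITGB3 met the count filter through the BARD1-expressing libraries. It stood at 0.743 to 1.66 CPM in BARD1-expressing and 0.248 to 0.35 CPM in control libraries. ITGB4, the beta subunit of a laminin-binding integrin, stood at 9.24 ± 0.638 CPM in BARD1-expressing and 2.19 ± 0.240 CPM in control cells, SDC4 at 193 ± 9.82 CPM in BARD1-expressing and 116 ± 2.23 CPM in control cells and GPC1 at 95.5 ± 7.24 CPM in BARD1-expressing and 57.0 ± 0.495 CPM in control cells (SD, n = 3 each), the last 2 being heparan sulfate proteoglycans of the cell surface. The collagen receptors, named after their values were seen, were split. The integrin gene ITGA1, whose product favours type IV collagen, was higher (16.5 ± 0.937 CPM in BARD1-expressing and 13.3 ± 1.45 CPM in control cells, edgeR adjusted p = 0.0304, lost in 5 of 12 alternatives), ITGA2 was lower (1.69 ± 0.036 CPM in BARD1-expressing and 3.20 ± 0.387 CPM in control cells, edgeR adjusted p = 0.00273) and the discoidin receptor gene DDR1 was higher (47.5 ± 2.56 CPM in BARD1-expressing and 36.5 ± 5.08 CPM in control cells, edgeR adjusted p = 0.00163). Among 9 tested proteases and inhibitors 2 rose and 1 fell, namely MMP14 (160 ± 9.75 CPM in BARD1-expressing and 128 ± 9.93 CPM in control cells), TIMP2 (477 ± 8.76 CPM in BARD1-expressing and 322 ± 13.5 CPM in control cells) and TIMP1, which fell to 67.4 ± 3.59 CPM in BARD1-expressing cells, against 82.5 ± 1.35 CPM in control cells. The type IV collagenase gene MMP2 had no count in any library, and MMP9 stood at 1.19 ± 0.205 CPM in BARD1-expressing and 1.37 ± 0.382 CPM in control cells (edgeR adjusted p = 0.749).

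**Figure D4:**
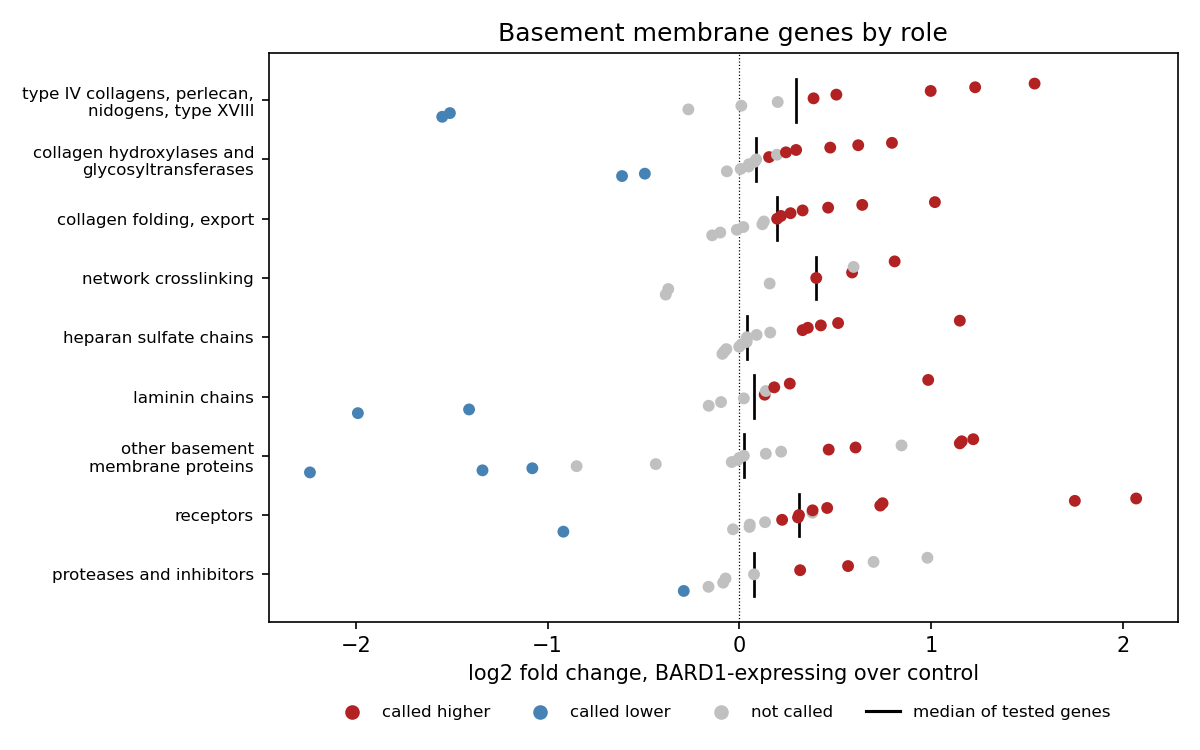
Log2 fold change, BARD1-expressing over control, of each tested gene of the 10 described genes and of 8 lists of basement membrane genes by role, 1 point per gene, red where called higher, blue where called lower and grey where not called, with a line at each list's median. The medians run from 0.02 for other basement membrane proteins to 0.40 for crosslinking genes, against -0.0027 over all tested genes.

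The shares called in these lists ran from 33.3% for heparan sulfate genes and for proteases and inhibitors to 66.7% for receptors, beside 29.0% of all tested genes. Median log2 fold changes were 0.088 for chain-modifying enzymes, 0.20 for folding and export, 0.40 for crosslinking, 0.039 for heparan sulfate, 0.078 for laminins, 0.023 for other basement membrane proteins, 0.31 for receptors and 0.077 for proteases and inhibitors.

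Type IV collagen and perlecan are also made by endothelial cells and pericytes, so markers of those cells were read in the same libraries. Of 12 endothelial markers 6 were tested and 4 of them rose, or 66.7% called, beside 29.0% of all tested genes (16.5% higher), with a median log2 fold change of 1.05, and the summed level was 51.8 to 70.8 CPM in BARD1-expressing and 37.2 to 44.9 CPM in control libraries. Those that rose were ESAM (5.38 ± 0.891 CPM in BARD1-expressing and 1.19 ± 0.113 CPM in control cells, SD, n = 3 each), TIE1 (4.52 ± 1.48 CPM in BARD1-expressing and 1.26 ± 0.136 CPM in control cells), KDR (0.835 ± 0.243 CPM in BARD1-expressing and 0.265 ± 0.0905 CPM in control cells, a call lost in 3 of 12 alternatives) and EGFL7 (42.3 ± 6.48 CPM in BARD1-expressing and 29.8 ± 2.73 CPM in control cells). KDR, with 5 to 8 reads in control libraries, met the count filter through the BARD1-expressing libraries. Its place among the tested genes thus depends on the group where it was high. The 66.7% and the median of 1.05 include KDR and leave out the untested markers. Of the 12 endothelial markers, 6 were under 1 CPM in every library. ERG and ROBO4 were tested and not called, with ERG at 7.6 ± 1.38 CPM in BARD1-expressing and 8.09 ± 1.49 CPM in control cells. The defining endothelial markers CDH5 and PECAM1 had too few counts to be tested. CDH5 stood at 0 to 0.0664 CPM in BARD1-expressing and 0 to 0.0413 CPM in control libraries. PECAM1 stood at 0.265 to 0.393 CPM in BARD1-expressing and 0.0461 to 0.307 CPM in control libraries. Of 12 fibroblast and pericyte markers 6 were tested and 83.3% of these were called, against the same 29.0%. The 4 that rose were LUM, CSPG4, ACTA2 (a call lost in 6 of 12 alternatives) and PDGFRB (13.7 ± 0.922 CPM in BARD1-expressing and 4.81 ± 0.634 CPM in control cells, SD, n = 3 each), and COL1A1 fell. LUM stood at 0.795 ± 0.266 CPM in BARD1-expressing and 0.186 ± 0.0889 CPM in control cells. ACTA2 stood at 0.77 ± 0.164 CPM in BARD1-expressing and 0.303 ± 0.162 CPM in control cells. Both met the count filter through the BARD1-expressing libraries, where they were high. The 83.3% includes them and leaves out the untested markers. Of the 12 markers, 8 were under 1 CPM in every library. The summed level of the 12 was 977 to 1050 CPM in BARD1-expressing and 1120 to 1200 CPM in control libraries, most of it COL1A1, and DCN had no count in any library. Of 8 immune markers 2 were tested and none was called by edgeR, DESeq2 or limma-voom (in edgeR 1 was lower at an unadjusted p under 0.05, ITGAM), with a sum of 1.42 to 2.52 CPM in BARD1-expressing and 1.52 to 2.23 CPM in control libraries, and PTPRC was at 0 to 0.0664 CPM in BARD1-expressing libraries and at 0 in each control library. The part of these markers in the collagen and perlecan results was not tested. In bulk RNA, fewer cells of a type and less RNA per cell cannot be told apart.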

How the data were processed

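Whole-number counts of reads for each gene were deposited, beside positions, lengths and biotypes. The submitters' processing notes name HISAT2 (2.0.5), featureCounts (version 1.5.0-p3), DESeq2 (version 1.20.0) and the build GRCh38 (hg38), with no role or option for any of them. Per the labels' protocols, mRNA was poly(T)-selected and primed with random hexamers, and the second strand is described for directional or for non-directional libraries, with no choice stated. Columns were matched to libraries by the labels' descriptions.

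From the deposited counts, genes were filtered with filterByExpr, scaled by TMM and tested with edgeR 4.0.16 (R 4.3.3; robust quasi-likelihood F test, group as the only term, 4 residual degrees of freedom). Benjamini-Hochberg adjustment ran over the 15400 tested genes, and genes were called at an adjusted p under 0.05. Fold changes are BARD1-expressing over control, and SEs come from the same fit. Log2 ratios of paired genes took a prior count of 2 on the log2 CPM scale, and their differences an exact permutation test (scipy 1.17.1). The fit was also run on counts simulated from edgeR's own estimates, which cannot test whether its model holds for these libraries. Libraries of the same group were never identical, with a chi-square per degree of freedom of 3.41 to 8.11, so all 6 were kept as replicates.

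The members and gene lists were chosen with earlier results of these data known. The rule for named genes takes the members, BARD1, up to 3 called genes with the smallest p in each list, 6 defining markers, overlapping genes and, for members of at least 5 CPM, the 3 most correlated genes. A gene that this rule takes is not reported here. Markers named beyond these were chosen after their values were seen. Alternatives were DESeq2 size factors, DESeq2 1.42.0, limma-voom (limma 3.58.1), no filter, TMM without chromosome 18 and mitochondrial genes, the replicate number as a block, a prior count of 0.5 and leaving out each library.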

Additional observations from a re-analysis of the deposited data

How the results depend on the processing

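The 5 members called higher and the 2 called lower kept these counts, and each of the 7 kept its direction and its call, in all 12 alternatives. Ranges of log2 fold change were 1.2 to 1.26 for COL4A1, 0.94 to 1.06 for COL4A2, 1.48 to 1.61 for HSPG2, 0.46 to 0.56 for COL18A1, 0.35 to 0.42 for NID1, -1.66 to -1.38 for COL4A4 and -2.18 to -1.32 for COL4A3, whose adjusted p reached 0.0498. COL4A5 and NID2 were called in none of them. The log2 fold change of COL4A6 changed sign, at -0.30 to 0.43 with 1 library left out. The ratio of COL4A3 to COL4A4 reversed to -0.19 with a prior count of 0.5, and ran from -0.24 to 0.32 with 1 library left out, and that of COL4A5 to COL4A6 from -0.80 to 0.0106. The cause was not tested. COL4A3 and COL4A6 had 3 to 25 reads per library. The ratio of COL4A1 to COL4A2 stayed at 0.19 to 0.26 and that of NID1 to NID2 at 0.09 to 0.26. Over all genes, 1950 to 2620 were called higher and 1370 to 2140 lower, and 34 to 41 and 9 to 10 of the other pathway genes.

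Libraries with the same replicate number did not visibly deviate together (correlations -0.112, -0.031 and -0.009). Libraries with different numbers had correlations of -0.113 to 0.15. Pairing by number was thus not seen, but deviations from means of 3 libraries cannot exclude it. With the replicate block 2296 genes were called higher and 1694 lower, and the members' calls stayed 5 higher and 2 lower. The block cannot move the mean difference of a paired-gene ratio, but the exact permutation p, which cannot go below 0.25 over 3 pairs, was 0.25 in place of 0.1 for COL4A1 to COL4A2, 1 as before for COL4A3 to COL4A4, 0.25 in place of 0.5 for COL4A5 to COL4A6 and 0.5 in place of 0.3 for NID1 to NID2.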
